A study of Mus musculus with 24 samples.

Results

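The ErbB receptors and their ligands are 10 genes here: the 4 receptors Egfr, Erbb2, Erbb3 and Erbb4, and the 6 ligands Egf, Hbegf, Areg, Ereg, Tgfa and Btc. Members were all probes that the scanner files name for these genes, which gave 13 of the 39429 probes and 10 of the 29742 genes on the array. After the filters on dim and unvarying probes, 4 of the 10 genes (Egfr, Erbb2, Hbegf and Tgfa) were among the 17802 genes tested.

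The samples were blood of male C57BL/6J mice, taken by cardiac puncture 24 h after x-rays of 4 Gy or after no irradiation, from young mice of 2 months and old mice of 21 months. Each of the 4 groups (young unirradiated, young irradiated, old unirradiated and old irradiated) held 6 mice, with 1 mouse on each of the 24 arrays. Blood was kept in PAXgene solution and globin transcripts were reduced before labelling, so levels are those of whole blood RNA after these steps. The question of the design is how age changes the transcript response to radiation.

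ErbB receptors are tyrosine kinases of the cell surface that pair when a ligand binds. Most ligands are made as membrane proteins that proteases such as Adam17 and Adam10 release, and the paired receptors recruit adaptors that activate the Ras to ERK cascade. Erbb2 binds no known ligand by itself and Erbb3 has a weak kinase, and both act mainly as partners in a receptor pair. The family is best known from epithelia, liver and heart, and most blood cells carry little of it.

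Levels are given as the log2 of the processed signal minus the median of the array, so 0 is the level of the middle probe of an array. A spot was taken as detected where the scanner software marked it as well above background, which held for 43.9 to 64.4% of the spots of an array. Some arrays stood apart. There were 7 arrays rich in liver transcripts, and old irradiated replicates 4 and 6 were low in monocyte markers, as given beside the results. Some mice of a group were very close to each other, compared over the 13701 probes detected on every array after quantile normalization of these probes. The median absolute log2 difference was 0.0939 between old unirradiated replicates 1 and 6 and 0.107 between young irradiated replicates 2 and 5. The median over the 60 pairs of mice within groups was 0.279. Old irradiated replicates 4 and 6 lay 0.903 to 1.04 from the rest of their group. With array-median scaling the 2 close pairs had 0.108 and 0.185, and the latter ranked 5 in place of 2. With 4 such pairs each counted as 1 mouse, chosen after seeing the data, the results for Egfr, age in unirradiated mice, and Erbb2, age in unirradiated mice, were -2.39 and -1.92, both called (limma adjusted p = 9.22e-04 and 1.50e-04).

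Few ErbB probes reached the mark of detection. Erbb2 was well above background on all 24 arrays, the Egfr probe A_55_P1956863 on 19, Hbegf on 12, the Egfr probes A_52_P106259 and A_55_P1956862 on 7 and 6, Egf on 2 and Erbb3 on 1. The other 6 probes, for Erbb4, Areg, Ereg, Tgfa and Btc, were not well above background on any array.

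**Figure D1:**
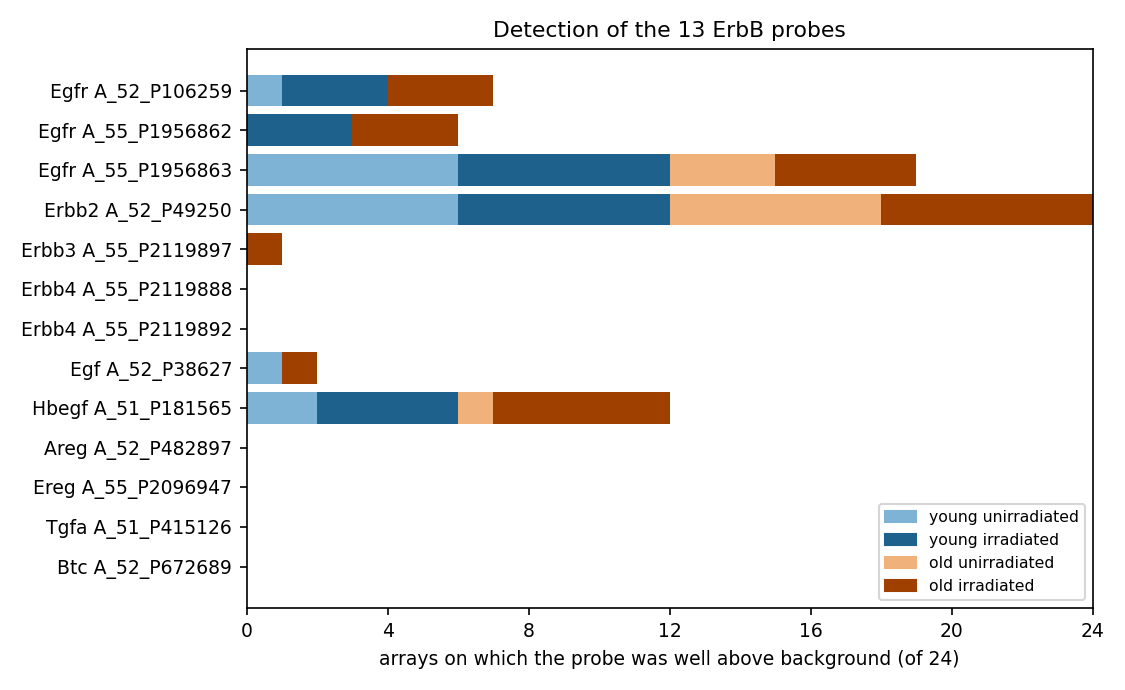
Number of arrays (of 24) on which each of the 13 ErbB probes was well above background, stacked by group of 6 mice. Only Erbb2 reached all 24 arrays, and 6 probes reached none.

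A gene was called where the limma moderated test, two-sided, gave p under 0.005 and a Benjamini-Hochberg adjusted p under 0.05 over all genes tested. None of the 4 tested ErbB genes was called for radiation in young mice, where 35.4% of all genes were called, and none for radiation in old mice, where 24.9% were called. With age in unirradiated mice, 2 of the 4 were called, Egfr and Erbb2, where 63.8% of all genes were called. Both were lower in old mice, where 15.4% of all genes were called lower, or 26.5% when arrays were scaled to the 75th percentile and 27.4% when scaled to well-detected probes. With age in irradiated mice none of the 4 was called, where 2.00% of all genes were called. The limma test of the interaction, the difference between the responses of old and young mice, called 0 of the 4 and 0 genes in all (0%), with 4191 genes at an unadjusted p under 0.05 and a lowest adjusted p of 0.0607.

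All 13 ErbB probes were also tested among the 39429 probes without filters, since several genes fail the filter on dim probes. No ErbB probe was called for radiation in young mice (19.3% of all probes), radiation in old mice (15.3%) or age in irradiated mice (0.289%), and none for the interaction (0%). With age in unirradiated mice the Egfr probe A_55_P1956863 and the Erbb2 probe were called, where 38.9% of all probes were called. In limma, 9481 genes for radiation in young mice, 7970 for radiation in old mice and 3801 for age in irradiated mice had an unadjusted p under 0.05. The median difference of all genes was -0.20 for radiation in young mice, -0.25 for radiation in old mice, 0.63 for age in unirradiated mice and 0.20 for age in irradiated mice.

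The probes on which the receptor results rest are shown as windows of 30 bases from probes of 60 bases. Capitals mark the longest run that each probe shares with a probe of another gene on the same array. On build mm9 the Egfr probes lie on the plus strand at chr11:16813815-16813874 (A_52_P106259), chr11:16787172-16787231 (A_55_P1956862) and chr11:16783556-16783615 (A_55_P1956863). The Erbb2 probe lies on the plus strand at chr11:98298103-98298162.
Egfr A_52_P106259: accctagtATTTTTGTACTTTGaaatactt
Egfr A_55_P1956862: gtacgttcAATGGCAGTGGATCTtaaagac
Egfr A_55_P1956863: cagatgccAATAATGTCTGCCAcctatgcc
Erbb2 A_52_P49250: ggCTATGCCAGGAAcgtgccctgaggaacc
The shared runs were 14, 15, 14 and 12 bases long, and each was found in 1 probe of another gene. The files name the same Egfr transcript for A_55_P1956862 and A_55_P1956863 and another Egfr transcript for A_52_P106259.

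Erbb2 was the receptor seen in every mouse, and it was lower in old than in young blood. In young unirradiated mice its lowest, median and highest levels were 2.55, 3.34 and 4.05, and in old unirradiated mice 0.71, 1.33 and 1.82. Every old mouse lay below every young mouse, which held in one direction or the other for 48.6% of all genes tested. The difference was -2.02 (SE 0.284, n = 6 and 6, limma adjusted p = 5.03e-05), or -2.65 relative to the median of all genes. The exact permutation test gave p = 0.00216, the smallest it allows with 6 against 6 mice, and 0.0563 after adjustment over 52 such tests. Of the 17802 genes tested, 776 had a lower difference than Erbb2 in this comparison.

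In irradiated mice the levels of Erbb2 were 1.89, 2.74 and 3.98 in young mice and -0.37, 1.3 and 2.57 in old mice. The groups overlapped, with 4 of the 6 old mice below all young mice, and the difference of -1.68 (SE 0.494, limma adjusted p = 0.0895) was not called. It was called with slide as a block (-1.69, limma adjusted p = 0.0338) and in a single fit of 24 arrays (limma adjusted p = 0.00855). No slide held both ages, so the block compares no ages within a slide. Without old irradiated replicate 6 the difference was -1.96 and was called (limma adjusted p = 0.0451). Without old irradiated replicates 4 and 6 it was -2.24 and was called (limma adjusted p = 0.00354), a setting chosen after seeing the data. These 2 arrays had the highest Erbb2 levels of their group, 2.01 and 2.57, and the lowest medians of the 24 arrays. Radiation left the Erbb2 groups overlapping in each age, with differences of -0.47 in young mice (limma adjusted p = 0.274) and -0.12 in old mice (limma adjusted p = 0.850). Without the 7 arrays rich in hepatocyte markers the signs turned, to 0.09 in young and 0.64 in old mice, neither called. On the slide of each age that held irradiated and unirradiated mice, 2 of each, the differences were -0.67 in young and 0.43 in old mice. Young and old mice were on different slides scanned on different days, so age and scan day cannot be told apart.

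Egfr, the receptor of all 6 ligands of the set, is represented among the tested genes by the probe A_55_P1956863. Its lowest, median and highest levels were 0.72, 1.32 and 2.03 in young unirradiated mice and -2.96, -0.95 and -0.03 in old unirradiated mice. All 6 old mice lay below all 6 young mice, where 48.6% of all genes tested did not overlap in one direction or the other. For this probe 6 young but 3 old mice were well above background. The difference was -2.52 (SE 0.463, limma adjusted p = 3.19e-04). With the old arrays set at no less than their lowest probe well above background, a choice made after seeing the data, it was -1.86. The exact permutation test gave p = 0.00216, and 0.0563 after adjustment. The other Egfr probes were not called in this comparison, A_52_P106259 (limma adjusted p = 0.466) and A_55_P1956862 (limma adjusted p = 0.364). Of the unirradiated mice, 1 young mouse was well above background for A_52_P106259 and none for A_55_P1956862, so no difference is given. The age result of Egfr therefore rests on A_55_P1956863 alone.

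In irradiated mice this Egfr probe reached 1.3, 2.67 and 3.86 in young mice and -1.85, 1.36 and 2.79 in old mice, and these groups overlapped with each other. Irradiated mice were above unirradiated mice by 1.24 in young (SE 0.443, limma adjusted p = 0.0349) and by 2.24 in old mice (SE 0.757, limma adjusted p = 0.0348). Neither difference was called, because the unadjusted p was above 0.005 in each. In each age 5 of the 6 irradiated mice lay above the unirradiated median. Without young irradiated replicate 3 the young difference was 1.5 and was called (limma adjusted p = 0.0112), and without old irradiated replicate 1 the old difference was 2.83 and was called (limma adjusted p = 0.00569). The old difference was 0.37 with normexp (limma adjusted p = 0.813) and 0.79 with normexp without outlier spots (limma adjusted p = 0.115). In the deposited table the differences were 1.13 in young (limma adjusted p = 0.119) and 1.81 in old mice (limma adjusted p = 0.0944). With slide as a block the young difference was 1.18 and was called (limma adjusted p = 0.00495). With dim arrays set as above, the old irradiated mice were higher by 1.59. On the slide that held both treatments the young difference was 1.47, and in old mice no unirradiated array on it was well above background. The difference between irradiated old and young mice was -1.51 (limma adjusted p = 0.262), and the interaction was 1.0 (limma adjusted p = 0.480).

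**Figure D2:**
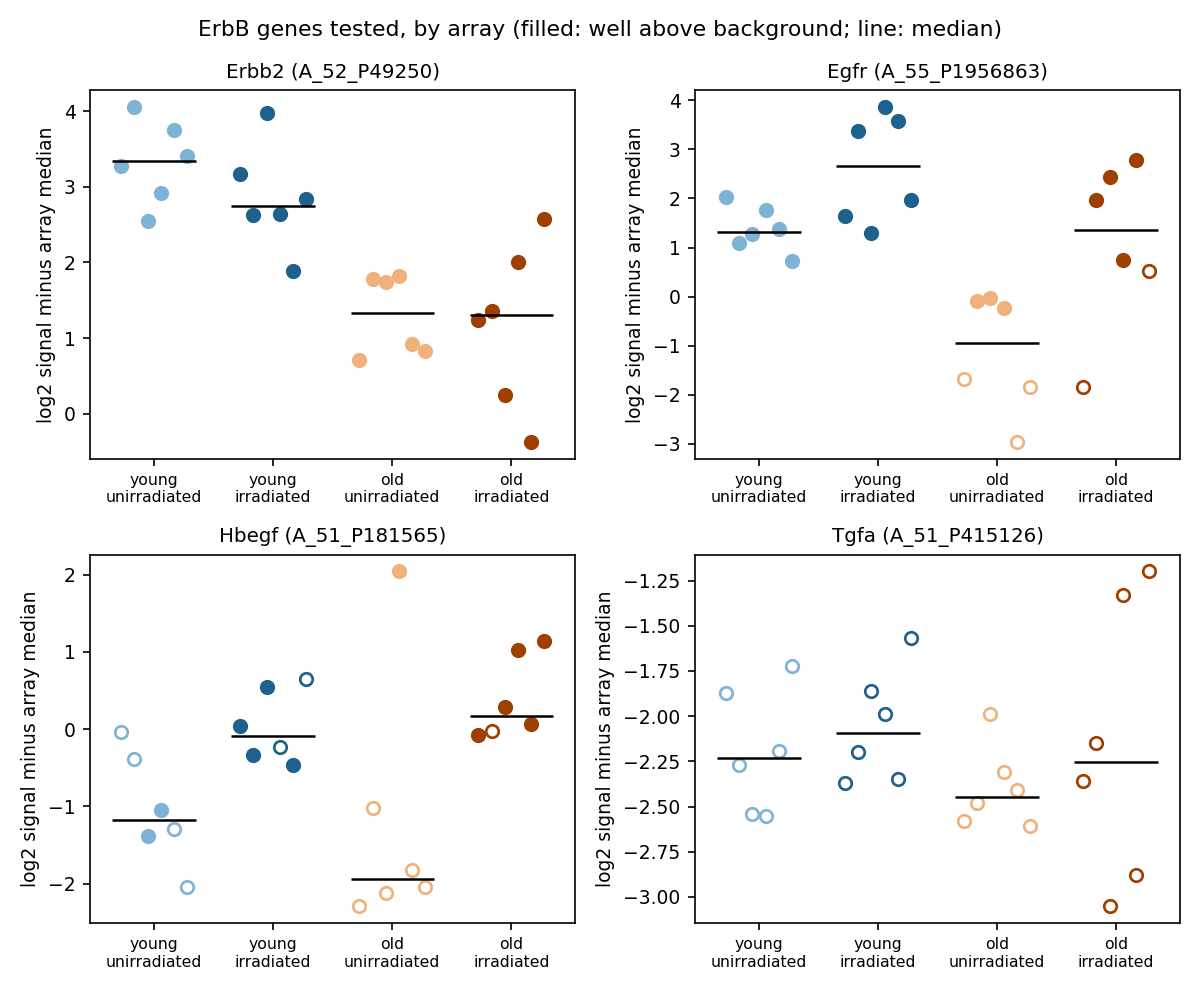
Level of the 4 tested ErbB genes on each array (log2 of the processed signal minus the array median), by group of 6 mice. Filled points were well above background, and lines are group medians. For Erbb2 and Egfr all old unirradiated mice lie below all young unirradiated mice. These groups did not overlap, in one direction or the other, for 48.6% of all genes tested.

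The other Egfr probes divided the irradiated mice into low and high arrays. For A_52_P106259 the lowest, median and highest levels were -3.05, -2.43 and 0.86 in young unirradiated, -2.92, 1.36 and 3.96 in young irradiated, -2.71, -2.56 and -2.18 in old unirradiated, and -2.61, 0.45 and 3.63 in old irradiated mice. For A_55_P1956862 they were -3.97, -2.64 and -0.41, then -2.91, 0.79 and 4.17, then -3.15, -3.07 and -2.68, and -3.13, -0.14 and 2.94. The high arrays were young irradiated replicates 2, 4 and 5 and old irradiated replicates 2, 3 and 5 for both probes, with young unirradiated replicate 5 also well above background for A_52_P106259.

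Radiation in old mice gave 3.08 for A_52_P106259 (limma adjusted p = 0.0433) and 2.94 for A_55_P1956862 (limma adjusted p = 0.0465), neither called. No old unirradiated array was well above background for either probe, so these differences stand as bounds of at least 2.56-fold and at least 1.67-fold higher in irradiated old mice. A bound sets the mean of the brighter group against, for each dim array, the higher of its own value and its lowest probe well above background. Without single arrays the bounds ran from 1.67 to 3.96 and from 1.10 to 2.55, lowest without old irradiated replicate 5 and highest without replicate 1. Both became called without old irradiated replicate 1 (3.71 and 3.56), replicate 4 (3.56 and 3.42) or replicate 6 (3.48 and 3.34). In young mice the measured differences were 2.92 (limma adjusted p = 0.126) and 3.11 (limma adjusted p = 0.115). For A_52_P106259 only 1 young unirradiated and 3 young irradiated arrays were well above background, so 2.92 is not an exact size. For A_55_P1956862 the difference stands as a bound of at least 2.95-fold, which ran from 1.81 without young irradiated replicate 4 to 4.82 without replicate 1. With slide as a block both were called in young mice (measured 3.45, limma adjusted p = 0.00709, and 3.48, limma adjusted p = 0.00757). These values are no exact sizes either, since 1 and 0 of the 6 young unirradiated arrays were well above background.

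The arrays high for Egfr were those highest in transcripts of liver cells. The mean level of 25 hepatocyte markers, all on the array and all well above background on some array, was 8.18, 9.31 and 8.38 in young irradiated replicates 2, 4 and 5 and 7.57, 8.13 and 8.38 in old irradiated replicates 2, 3 and 5. It was 5.23 in young unirradiated replicate 5, at most 2.90 on the other 17 arrays, and -1.77 to -1.06 in old unirradiated mice. The most abundant marker, Apoa2, had medians of 6.29 in young unirradiated, 9.0 in young irradiated, 5.61 in old unirradiated and 9.41 in old irradiated mice. Of the 12 hepatocyte markers tested, 1 rose with radiation in young and 11 in old mice, and 7 fell with age in unirradiated mice. Of all genes 14.3% and 7.49% rose and 15.4% fell in these comparisons.

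Without these 7 arrays the radiation difference of the Egfr probe A_55_P1956863 was 0.25 in young (limma adjusted p = 0.519) and 0.94 in old mice (limma adjusted p = 0.297). For Egfr, age in unirradiated mice gave a difference of -2.52 without them (limma adjusted p = 7.72e-04). For A_52_P106259 and A_55_P1956862 no remaining array was well above background, so no difference is given. This setting was chosen after seeing the data. It leaves out the 3 highest Egfr levels of each irradiated group, so a smaller difference follows from the choice of arrays. In bulk RNA, fewer cells of a type and less RNA per cell cannot be told apart, and the part of liver transcripts in the Egfr levels was not tested.

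**Figure D3:**
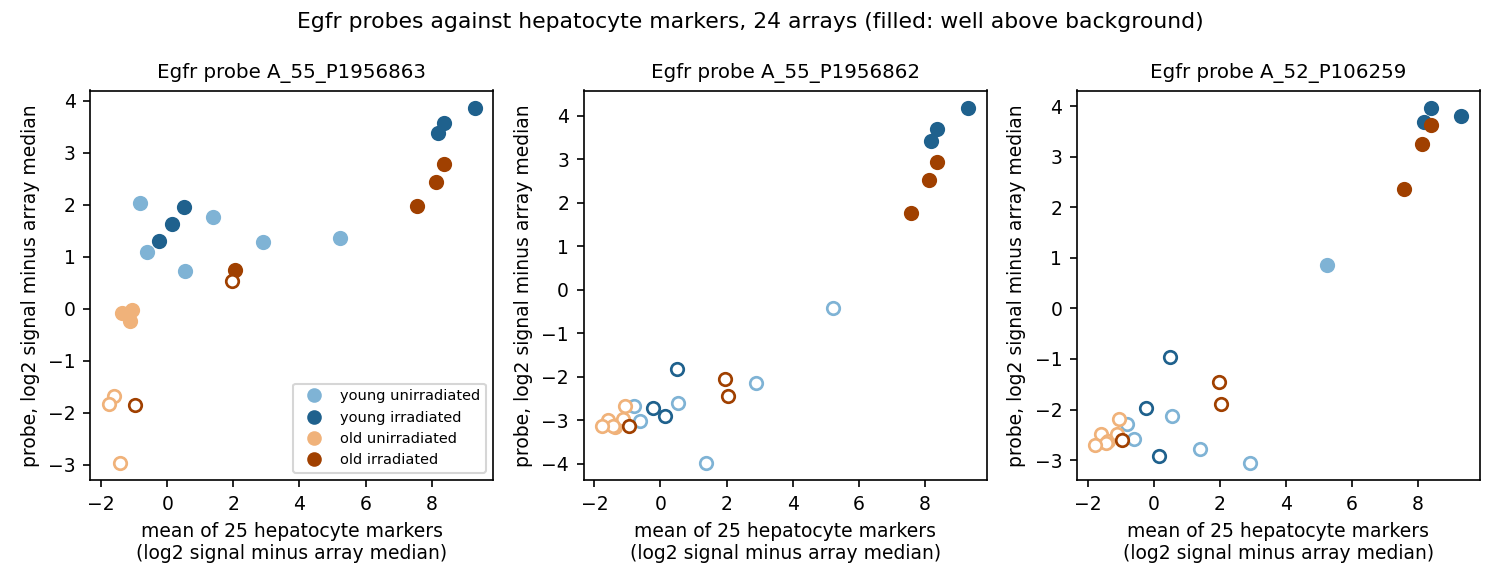
Level of each of the 3 Egfr probes (log2 minus the array median) against the mean level of 25 hepatocyte markers on the same array, 24 arrays, coloured by group. The 7 arrays highest in hepatocyte markers were the only ones well above background for A_52_P106259. For A_55_P1956862 it was 6 of these arrays, without young unirradiated replicate 5.

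The genes whose levels followed the Egfr probe A_55_P1956863 most closely over the 24 arrays were Akr1e1 (Pearson r = 0.924), Pla1a (0.900) and Gulo (0.897), given as a description. Gulo, an enzyme of vitamin C synthesis in the mouse liver, had group means of 1.0 in young unirradiated, 3.46 in young irradiated, -2.21 in old unirradiated and 2.20 in old irradiated mice. The genes closest to Erbb2 were Lep (0.969), Npy4r (0.968) and Lypd6 (0.965). Lep, the hormone leptin, had group means of 1.81, 1.35, -0.47 and -0.79 in the same order.

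Markers of other tissues were set beside the receptors. The heart marker with the highest signal, Myl3, had medians of 5.91 in young unirradiated and 2.72 in old unirradiated mice, and 5.49 and 3.83 in irradiated young and old mice. The mean of the 12 cardiac markers was near or below the array median, at most 0.53 on any array, and Myl7 and Pln were never well above background. The mean of 13 epithelial markers had medians of -0.27 and -0.70 in young and old unirradiated mice, and its most abundant gene, Esrp1, medians of 3.85 and 1.47. Of the 9 epithelial markers tested 4 fell and 1 rose with age in unirradiated mice, and of the 6 cardiac markers tested 1 fell, where 15.4% of all genes fell and 48.4% rose. The part of these tissues in the Erbb2 and Egfr levels was not tested.

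Erbb3, the partner receptor for neuregulins, was well above background on 1 array, old irradiated replicate 2, at a level of 0.41. Its median was between -2.83 and -2.33 in the 4 groups. The Erbb4 probes A_55_P2119888 and A_55_P2119892 were never well above background, with levels from -3.90 to -1.20 and from -4.45 to -1.86. No fold is given for Erbb3 or Erbb4.

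Hbegf, a ligand of Egfr and Erbb4 that white blood cells can make, was the ligand most often detected. Its lowest, median and highest levels were -2.05, -1.17 and -0.04 in young unirradiated and -0.46, -0.10 and 0.65 in young irradiated mice. They were -2.29, -1.93 and 2.04 in old unirradiated and -0.08, 0.17 and 1.14 in old irradiated mice. The number of mice well above background was 2 and 4 of 6 in young and 1 and 5 of 6 in old mice, unirradiated and irradiated. The groups overlapped in each age, and all 6 irradiated mice lay above the unirradiated median.

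The radiation difference of Hbegf was 1.07 in young mice (SE 0.325, limma adjusted p = 0.0162) and was not called, because its unadjusted p was above 0.005. The call was made without young unirradiated replicate 1 (1.27, limma adjusted p = 0.00535) or replicate 2 (1.2, limma adjusted p = 0.0129). In the deposited table the young difference was 0.58 (limma adjusted p = 0.228). In old mice it was 1.61 (SE 0.639, limma adjusted p = 0.0658), not called. Old unirradiated replicate 4 had the highest Hbegf level of all 24 arrays, 2.04, and was the only one of its group well above background. Without it the old difference was called (limma adjusted p = 0.00103), as a bound of at least 2.33-fold. With slide as a block the young difference was 0.94 and was called (limma adjusted p = 0.00748). With dim unirradiated arrays set as for Egfr, the irradiated mice were higher by 0.64 (young) and 0.74 (old). No unirradiated mouse on the slide that held both treatments was well above background, which leaves bounds of at least 1.17-fold in young and at least 1.80-fold in old mice. The age difference of Hbegf was -0.17 in unirradiated (limma adjusted p = 0.815) and 0.37 in irradiated mice (limma adjusted p = 0.553).

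Old unirradiated replicate 4 was also the highest of its group in neutrophil markers, with a mean of 7.11 over 11 genes against 5.24 to 5.71 in the other 5 mice. The medians of these markers were 4.23 in young unirradiated, 5.01 in young irradiated, 5.58 in old unirradiated and 6.14 in old irradiated mice, with S100a9 as the most abundant gene and all 11 well above background on some array. Of the 8 monocyte markers on the array, with Csf1r the most abundant, the group medians were 4.79, 5.63, 6.00 and 5.73 in the same order. Old irradiated replicates 4 and 6 stood apart at 2.82 and 2.92. Of the 11 neutrophil markers, 4 rose with radiation in young and none in old mice. Of the 8 monocyte markers, 4 rose and 1 fell in young mice, and none rose and 2 fell in old mice. Of 6 endothelial markers tested, 4 rose in young and 5 in old mice, and none fell. All 12 platelet markers rose in each age, with medians of 7.84, 9.73, 8.92 and 10.79 in the same order and Pf4 the most abundant. Of 12 tissue macrophage markers tested, 10 rose in young mice, and 1 rose and 1 fell in old mice. The share of all genes that rose was 14.3% in young and 7.49% in old mice, and 21.1% and 17.4% fell. The macrophage medians were 0.95, 4.51, 1.34 and 2.68, Adgre1 was the most abundant and Cd163 was never well above background. The part of these cells in the Hbegf levels was not tested.

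The remaining ligands gave little signal. Egf had medians of -1.64 in young unirradiated, -2.30 in young irradiated, -1.33 in old unirradiated and -2.09 in old irradiated mice, and was well above background on 1 young unirradiated and 1 old irradiated array. Radiation gave no call for Egf in young (limma adjusted p = 0.0630) or old mice (limma adjusted p = 0.0424), and no difference is given at these levels. Tgfa passed the filters but was well above background on no array, with levels from -3.05 to -1.20. It was not called under array-median scaling. It was called lower with age in unirradiated mice with the 75th percentile and well-detected scalings (limma adjusted p = 0.00628 and 0.00382), and no fold is given. Areg, Ereg and Btc lay between -4.40 and -1.80, -3.92 and -1.23, and -4.46 and -1.84.

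The direction of the age difference of Egfr (probe A_55_P1956863) and Erbb2 in unirradiated mice was checked under 6 other scalings, background corrections or sources of values. It was lower in old mice in all 6, from -3.08 to -0.55 for Egfr and from -2.58 to -1.09 for Erbb2. Both calls were lost with the normexp background correction (limma adjusted p = 0.675 and 0.216). The normexp model could not be fitted well on 3 arrays, where a few spots with a very bright local background gave it a background SD of 895, 438 and 400. Without spots that the scanner marked as background outliers both were called (-0.74, limma adjusted p = 0.00461, and -1.30, limma adjusted p = 2.97e-05). This setting was chosen after seeing the data. The median of all genes in this comparison was 0.00 when arrays were scaled to their 75th percentile and 0.16 after quantile normalization. It was -0.04 when scaled to well-detected probes and 0.02 in the deposited table.

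The other ligands of the receptors were a list of 5 genes, of which 2, Nrg1 and Nrg4, were tested. With radiation 14.3% of all genes rose and 21.1% fell in young mice, and 7.49% rose and 17.4% fell in old mice. Nrg4, a ligand of Erbb4, rose with radiation by 1.5 in young mice (limma adjusted p = 4.86e-04). Nrg4 rose by 2.23 in old mice (limma adjusted p = 5.42e-04). With dim unirradiated arrays (2 young and 3 old were well above background) set as for Egfr, the rises were 1.36 and 2.16. Its medians were -0.43 and 1.19 in young and 0.20 and 2.10 in old mice, unirradiated and irradiated. Nrg1, a ligand of Erbb3 and Erbb4, was well above background in 4 of 6 old unirradiated and in none of the young unirradiated mice, and was at least 2.37-fold higher in the old (2.01 to 2.80 without single arrays). In old mice Nrg1 was lower with radiation and was called (limma adjusted p = 0.0145), with 1 of 6 irradiated mice well above background. The measured difference was -1.90, and it was -1.10 with the irradiated arrays set at no less than their lowest probe well above background, as for Egfr. That call was lost without old unirradiated replicate 2 (-1.75), 4 (-1.66) or 5 (-1.71) and without old irradiated replicate 2 (-1.79), 3 (-1.77) or 5 (-1.75), and with the 75th percentile (-1.60). It was also lost with well-detected scaling (-1.57), in the deposited table (-1.25), without the 7 arrays rich in hepatocyte markers (-1.22) and without old irradiated replicates 4 and 6 (-2.03). The measured interaction for Nrg1 was -2.58 (limma adjusted p = 0.104), and without old irradiated replicate 3 it was -2.44 and was called (limma adjusted p = 0.0454). Nrg1 was well above background in 0 young mice of either treatment, so the young response lies between undetected levels. Neither interaction value is an exact size, and no conclusion is drawn from the call. Epgn and Nrg2 were not tested.

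Proteases and inhibitors of ligand shedding were a list of 12 genes, all tested. With radiation 5 rose in young mice and 3 in old mice, and none fell. Of all genes, 14.3% rose and 21.1% fell in young mice, and 7.49% rose and 17.4% fell in old mice. The median of the list was 0.43 in young and 0.14 in old mice, against -0.20 and -0.25 over all genes. Of 6 endothelial markers tested 4 rose in young and 5 in old mice, of 6 fibroblast markers 2 rose in each age, and none fell. Platelet and tissue macrophage counts are given beside Hbegf. The part of these cells in the rises of Timp3, Spry1, Gab1 and Ccnd1 was not tested. Timp3, an inhibitor of Adam17 and other proteases, rose by 2.90 in young (limma adjusted p = 5.60e-06) and 2.42 in old mice (limma adjusted p = 0.00226). With 2 young and 3 old unirradiated mice well above background and dim arrays set as for Egfr, the rises were 2.31 and 2.25. Its medians went from -1.07 to 1.64 in young and from -0.35 to 2.30 in old mice. Adam10, a protease that releases Egf and Btc, rose by 0.73 (limma adjusted p = 0.00568) and 1.08 (limma adjusted p = 0.00474). The young call was lost after quantile normalization (0.53), in the deposited table (0.45), with normexp (1.21, or 0.64 without outlier spots) and with close pairs counted once (0.69). The old call was lost with normexp (1.65). Adam17, the protease that releases Hbegf, Areg, Ereg and Tgfa, differed by 0.52 in young (limma adjusted p = 0.0383) and 0.02 in old mice (limma adjusted p = 0.976), not called.

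With age in unirradiated mice 7 of the 12 shedding genes rose and 1 fell, where 48.4% of all genes rose and 15.4% fell, with a list median of 0.79 against 0.63 over all genes. Adam8 rose by 1.56 (limma adjusted p = 4.74e-04), Rhbdf2, which carries Adam17 to the cell surface, by 0.95 (limma adjusted p = 2.74e-04), and Adam12 fell by 1.17 (limma adjusted p = 2.81e-04). Adam17 was higher by 0.66 (limma adjusted p = 0.00657), but its sign turned in the deposited table (-0.17). Its call was lost without young unirradiated replicate 1 (0.61), 3 (0.68), 4 (0.67) or 5 (0.54) and without old unirradiated replicate 2 (0.56), 3 (0.68), 4 (0.68), 5 (0.65) or 6 (0.69). The counts of rises depended on scaling. With the 75th percentile 1 shedding gene rose and 1 fell, where 10.8% of all genes rose and 26.5% fell. In the deposited table none rose and 1 fell, where 4.45% of all genes rose and 21.5% fell. The calls of Adam8 and Rhbdf2 were lost with the 75th percentile, at 1.04 and 0.43. No shedding gene was called with age in irradiated mice, where 2.00% of all genes were called.

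Genes that restrain the receptors or take them from the surface were a list of 22, of which 20 were tested. With radiation 6 rose and 1 fell in young mice, and 1 rose and 3 fell in old mice, with list medians of 0.17 and 0.38. The shares of all genes were 14.3% higher and 21.1% lower in young and 7.49% and 17.4% in old mice. Without the 7 arrays rich in hepatocyte markers the old median was -0.36, against -0.20 over all genes, with 2 rises and 3 falls. In that setting 15.8% of all genes rose and 24.4% fell. The falls in old mice depended on scaling, since with the 75th percentile 4 of 19 restraint genes tested rose and none fell. Under that scaling 11.8% of all genes rose and 12.8% fell, and the median of all genes was 0.24. Spry1, an inhibitor of signalling from receptors to ERK, rose by 2.24 in young (limma adjusted p = 6.06e-05) and 1.56 in old mice (limma adjusted p = 0.00839). The young rise was 2.07 with dim arrays set as for Egfr, since 2 of 6 young unirradiated mice were well above background. Cblb, a ubiquitin ligase of activated receptors, fell by 1.01 in young (limma adjusted p = 0.00128) and fell by 1.05 in old mice (limma adjusted p = 0.00807), where the call was lost with the 75th percentile (-0.75). The call of Spry1 in old mice was lost without the 7 arrays rich in hepatocyte markers (1.28). Sh3kbp1, an adaptor of receptor uptake, fell by 1.11 in old mice (limma adjusted p = 0.0164), with -0.66 in young mice (limma adjusted p = 0.0407), not called. That call was lost without old unirradiated replicate 1 (-0.93), 2 (-1.14), 5 (-1.15) or 6 (-0.97) and without old irradiated replicate 2 (-1.15), 3 (-1.14), 4 (-1.06), 5 (-1.11) or 6 (-1.03), and with the 75th percentile (-0.81).

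Errfi1, an inhibitor of the Egfr kinase, was high on 6 of the 7 arrays rich in hepatocyte markers. It reached 6.64, 7.46 and 6.81 in young irradiated replicates 2, 4 and 5 and 6.12, 6.33 and 6.85 in old irradiated replicates 2, 3 and 5, and 1.51 to 4.29 on the other 18 arrays, with 3.35 in young unirradiated replicate 5. Its radiation differences of 2.15 in young (limma adjusted p = 0.0812) and 0.92 in old mice (limma adjusted p = 0.446) were not called. With age in unirradiated mice 9 of the 20 restraint genes rose and 2 fell, where 48.4% of all genes rose and 15.4% fell, with a list median of 0.70 against 0.63 over all genes. Cbl fell by 2.23 (limma adjusted p = 2.17e-06) and the phosphatase Ptpn1 rose by 1.44 (limma adjusted p = 4.45e-06). With the mean of all Cbl probes the difference of Cbl was -0.42 and was not called. With the 75th percentile 3 restraint genes rose and 4 fell of 19 tested, where 10.8% of all genes rose and 26.5% fell. With age in irradiated mice no restraint gene was called, where 2.00% of all genes were called.

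Adaptors and signal transducers were a list of 42 genes, of which 39 were tested. With radiation 7 rose and 4 fell in young mice, and 5 rose and 3 fell in old mice, or 9 and 1 in old mice with the 75th percentile. Over all genes 14.3% rose and 21.1% fell in young mice, and 7.49% and 17.4% in old mice, or 11.8% and 12.8% with the 75th percentile. The list medians were 0.15 and -0.23, against -0.20 and -0.25 over all genes. Gab1, a docking protein of the receptors, rose by 2.76 in young mice (limma adjusted p = 8.52e-05) and was higher by 1.66 in old mice, not called (limma adjusted p = 0.0231). The young rise was 1.95 with dim arrays set as for Egfr, with 2 of 6 unirradiated mice well above background. The adaptor Nck2 rose by 2.15 in young (limma adjusted p = 2.63e-04) and 2.04 in old mice (limma adjusted p = 3.18e-04). Prkcb fell by 1.2 in young (limma adjusted p = 1.10e-04) and fell by 1.79 in old mice (limma adjusted p = 0.0104). B cell markers, with Cd79b the most abundant, fell in 10 of 10 cases in young and 9 of 10 in old mice, with list medians of -2.58 and -4.01. T cell markers, with Lck the most abundant, fell in 10 and 2 of 11 cases, with list medians of -1.62 and -0.68. The part of these cells in the falls of Prkcb, Cblb and Sh3kbp1 was not tested. Grb2, the adaptor that links the receptors to Ras, differed by -0.19 (limma adjusted p = 0.240) and -0.71 (limma adjusted p = 0.143).

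With age in unirradiated mice 33 of the 39 transducers rose and 1 fell, where 48.4% of all genes rose and 15.4% fell, with a list median of 0.93 against 0.63 over all genes. In the same comparison 8 of 11 neutrophil, 6 of 8 monocyte, 11 of 12 platelet and 5 of 10 B cell markers rose and none fell. Of 11 T cell markers 1 rose and 1 fell, and of 10 erythroid markers none was called. The part of these cells in the transducer levels was not tested. With the 75th percentile 8 transducers rose and 1 fell of 33 tested, where 10.8% of all genes rose and 26.5% fell. In the table of the authors, of 37 transducers tested, 1 rose and 3 fell, where 4.45% of all genes rose and 21.5% fell. Grb2 rose by 0.96 (limma adjusted p = 2.65e-05) and Shc1 by 0.91 (limma adjusted p = 1.18e-04). The groups did not overlap for either, as for 48.6% of all genes tested in one direction or the other. The call of Grb2 was lost with the 75th percentile (0.56). That scaling moves all probes of a comparison alike, as for Egfr from -2.52 to -3.03. Grb2 moved less, so another probe stood for the gene and the loss is not one of scaling alone. Crk rose by 1.48 (limma adjusted p = 5.96e-06) and Ksr1, a scaffold of the ERK cascade, fell by 1.25 (limma adjusted p = 1.21e-04). With age in irradiated mice 1 of the 39 was called, where 2.00% of all genes were called. It was the kinase Braf, higher by 1.42 (limma adjusted p = 0.0230). Its call was lost without young irradiated replicate 1 (1.45), 2 (1.40), 3 (1.45), 4 (1.34) or 5 (1.44). Sos1 was not tested and was never well above background.

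**Figure D4:**
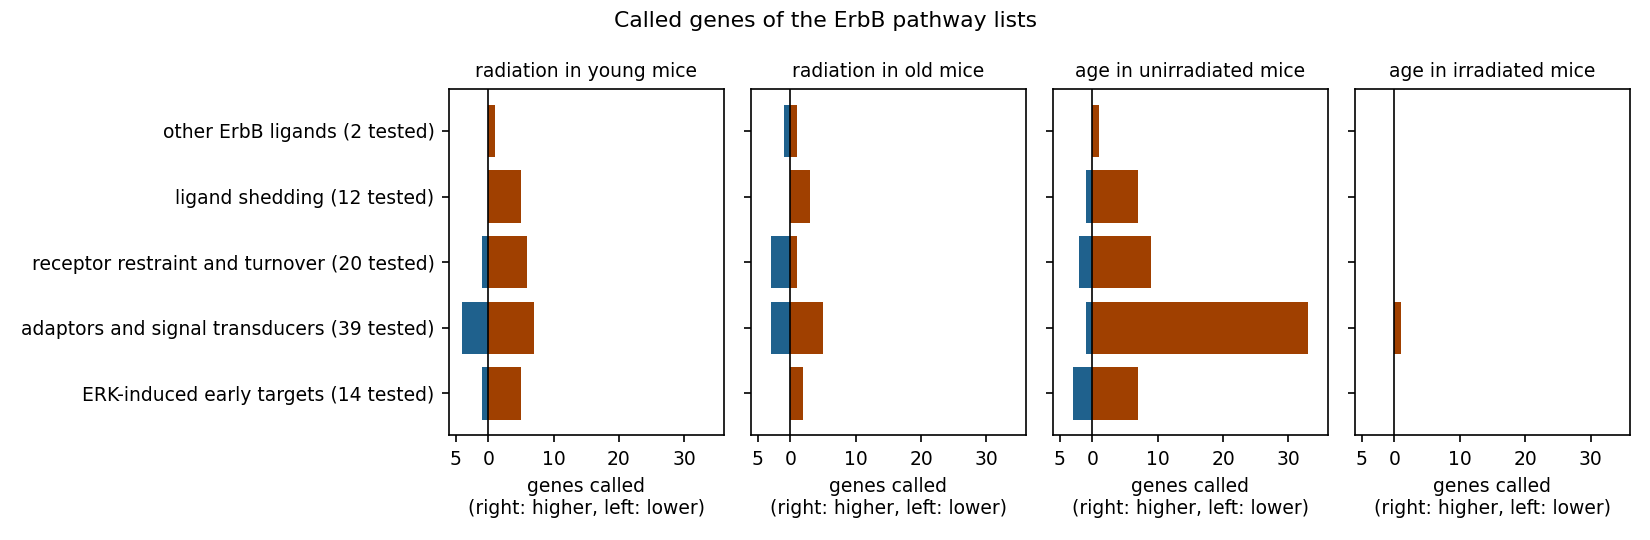
Number of genes called higher and lower in each of 5 lists of ErbB pathway genes, for radiation in young and in old mice and for age in unirradiated and in irradiated mice. Among 39 signal transducers 33 were higher and 1 lower with age in unirradiated mice under array-median scaling, and 8 and 1 of 33 with the 75th percentile. Of all genes 48.4% were higher and 15.4% lower under array-median scaling, and 10.8% and 26.5% with the 75th percentile.

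Early target genes of ERK were a list of 18, of which 14 were tested. With radiation 5 rose and 1 fell in young mice, and 2 rose and none fell in old mice, with a list median of 0.35 in each age. Among all genes 14.3% rose and 21.1% fell in young mice, and 7.49% rose and 17.4% fell in old mice. Ccnd1, a cyclin of the G1 phase, rose by 3.17 in young (limma adjusted p = 1.65e-04) and 1.59 in old mice (limma adjusted p = 0.00558). Etv4 fell by 1.10 in young mice (limma adjusted p = 0.00583), with 0.48 in old mice (limma adjusted p = 0.485). Without the arrays rich in hepatocyte markers Etv4 differed by -0.66 and was not called. Phlda1 rose by 1.77 in young (limma adjusted p = 1.04e-04) and 1.59 in old mice (limma adjusted p = 0.00156). Fos was not called in either age, with -0.41 in young (limma adjusted p = 0.326) and -0.36 in old mice (limma adjusted p = 0.714), and Egr1 did not pass the 1.5-fold filter.

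With age in unirradiated mice 7 of the 14 ERK targets rose and 3 fell, where 48.4% of all genes rose and 15.4% fell, with a list median of 0.84 against 0.63 over all genes. Ier3, well above background in 2 of 6 young mice, rose by 2.47 (limma adjusted p = 1.32e-05) and Etv5 fell by 1.83 (limma adjusted p = 5.80e-06). Fosl1 was lower in old mice (limma adjusted p = 3.24e-05), with 3 young and no old mice well above background, so no fold is given. With the 75th percentile 3 ERK targets rose and 3 fell of 14 tested, where 10.8% of all genes rose and 26.5% fell. With age in irradiated mice no ERK target was called, where 2.00% of all genes were called. The interaction gave no call in any of these lists, as over all genes. Without the 7 arrays rich in hepatocyte markers, chosen after seeing the data, it called 3238 of 17802 genes, 1452 higher and 1786 lower. Among these, 2 of 12 shedding genes were lower, and of 20 restraint genes 2 were higher and 3 lower. Of 39 transducers 1 was lower, and of 14 ERK targets 2 were higher.

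As a check that the irradiated mice carried a radiation response, 8 of 9 tested p53 target genes rose in young and 5 in old mice, a list chosen after the others. In old mice it was 8 of 10 with the 75th percentile and with well-detected scaling, 7 of 9 in the deposited table, 5 of 9 after quantile normalization and 4 of 10 with normexp without outlier spots. The share of all genes called higher was 14.3% in young and 7.49% in old mice. Under these other settings it was 11.8, 12.8, 8.61, 9.11 and 4.65% in old mice, in the order given. Cdkn1a, a p53 target that halts the cell cycle, rose by 5.06 in young (limma adjusted p = 5.57e-07) and 3.96 in old mice (limma adjusted p = 1.52e-05). The list was chosen with earlier results of these data known, so its rises are no independent test. They are no test of the ErbB genes either, and an ErbB gene without a call is not shown to be unchanged.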

How the data were processed

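Each array was hybridized with labelled RNA of 1 mouse, on a one-colour mouse array read with Feature Extraction 12.0.2. The scanner files hold, per the file headers, the processed signal as an intensity from which background was subtracted, without scaling across arrays. The deposited table holds log2 values that the authors filtered and scaled, with column medians of 5.77 to 6.73, and these differ from the scanner log2 by an amount that changes with signal. It was used only as an alternative. The members and lists were chosen with earlier results of these data known.

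The log2 intensity minus the median of each array was used. A probe was kept if fewer than 25% of the arrays carried a mark for an uneven spot or for signal too close to background. It also had to lie 1.5-fold or more from its own median on 20% of the arrays or more. The probe with the highest mean stood for a gene. This left 24130 probes and 18737 genes after the first filter, and 17802 genes tested. Each comparison of 6 with 6 mice was fitted with limma 3.58.1 in R 4.3.3, two-sided, and the interaction with all 24 arrays. Tables and figures used Python 3.11.15, numpy 2.4.6, pandas 2.3.3 and matplotlib 3.10.9. The number of arrays limits the precision.

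Genes named were all members, the first 3 of each pathway list as written, the called genes with the largest rise and fall of each list, the most abundant gene of each marker list, and the 3 genes most like a member seen on at least 18 arrays. The p53 targets were added later. Alternatives were 4 other scalings or sources of values, normexp correction with offset 50, other filters, the mean of probes, a trended variance, a single fit of 24 arrays, replicate and slide blocks, and leaving out arrays. The analysis was tested on simulated data.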

Additional observations from a re-analysis of the deposited data

Results flagged for a closer look

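In 112 groups of 6 arrays, 52 for the ErbB probes and 60 for marker and p53 target lists, 6 had a highest or lowest array set apart from the rest. The gap to the nearest array took up most of the range of the group, past the 95% critical value of Dixon, and chance marks about 1 in 20 groups. Egfr A_52_P106259 stood at 0.86 in young unirradiated replicate 5, with the other arrays at -3.05 to -2.12. Hbegf stood at 2.04 in old unirradiated replicate 4, with the others at -2.29 to -1.02. Erbb3 stood at -2.44 and Erbb4 A_55_P2119892 at -2.72 in old unirradiated replicate 3, neither well above background, with the others at -2.91 to -2.76 and -3.21 to -3.03. Neutrophil markers stood at 7.11 in old unirradiated replicate 4, with the others at 5.24 to 5.71. Endothelial markers stood at 1.95 in young irradiated replicate 1, with the others at 2.34 to 2.53.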

How the results depend on the processing

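Erbb2 and Egfr (probe A_55_P1956863) were lower in old unirradiated mice under every alternative tried. The call of both was lost with the normexp correction, with which 0 ErbB genes were called. Without single arrays their differences ranged from -2.18 to -1.88 and from -2.74 to -2.15. Over the genes named, 2957 differences kept direction and side of the threshold, 135 lost a call, 51 gained one and 132 turned sign, over all comparisons and alternatives.

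Counts of called genes moved more. For radiation in young mice the count was 6297, against 838 with normexp, 2651 with normexp without background outlier spots, 3748 in the deposited table and 3993 in a single fit of 24 arrays. With slide as a block it was 8872, with 2 ErbB genes, Egfr and Hbegf. For radiation in old mice it was 4428, against 8, 1472 and 2845 with the same corrections and table, 7168 without the 7 arrays rich in hepatocyte markers and 2876 with 4 pairs of close arrays counted once. In a single fit it was 6371, with 1 ErbB gene, Egfr. For age in unirradiated mice it was 11365, against 5829 when scaled to the 75th percentile, 6195 after quantile normalization, 5679 when scaled to well-detected probes, 0 with normexp (963 at an unadjusted p under 0.05 in limma), 3932 with normexp without outlier spots, 4448 in the deposited table and 6210 in a single fit. The 75th percentile and well-detected scalings each called 3 ErbB genes, Egfr, Erbb2 and Tgfa. With normexp the fitted background SD was 895, 438 and 400 on 3 arrays.

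For age in irradiated mice the count was 356, against 118, 173 and 205 with the 75th percentile, quantile and well-detected scalings, 35 and 27 with normexp with and without outlier spots, 44 in the deposited table, 108 without a filter on dim probes, 27 without the 7 arrays and 7 with close pairs counted once. It was 2568 in a single fit, 1380 with slide as a block and 5051 without old irradiated replicates 4 and 6, each with 1 ErbB gene, Erbb2. For the interaction it was 0, against 8, 7 and 9 with the 3 scalings, 4 with probes well above background on all 6 arrays of a group, 2 with the mean of probes, 32 with slide as a block, 3238 without the 7 arrays and 27 without the 2 old irradiated arrays. The cause was not tested.

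The share of calls that were higher moved with scaling. It was 40.4, 30.1, 75.8 and 70.2% in the 4 comparisons in the order above, 42.1, 48.0, 28.9 and 25.4% for the 75th percentile, 40, 37.6, 47.0 and 45.7% after quantile normalization, 44.9, 53.5, 24.8 and 29.8% with well-detected probes, and 38.3, 52.0, 17.2 and 15.9% in the deposited table. With normexp it was 94.0% for radiation in young and 11.4% for age in irradiated mice, with 4 of 8 calls for radiation in old mice and 0 calls for age in unirradiated mice, and without outlier spots 54.2, 35, 72.3 and 18.5%. In the deposited table the age differences of Adam17 and Mdm2 in unirradiated mice turned to -0.17 and -0.01.

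Without single arrays the counts ranged from 5437 to 6588 and 3228 to 4637 for radiation in young and old mice (0 to 1 ErbB genes each), 10391 to 11647 for age in unirradiated mice (2 ErbB genes), 30 without young irradiated replicate 3 to 516 without old irradiated replicate 6 for age in irradiated mice (0 to 1), and 0 to 1050 without old irradiated replicate 3 for the interaction (0). Replicate numbers were checked for pairing. Correlations between mice of the same number ran from -0.60 to 0.58 and were above 0.1 in 3, 4, 1 and 4 of 6 pairs, never in all 6. In the same comparisons 1, 3, 0 and 1 mice correlated best with their own number. These correlations do not settle whether mice of the same number were paired, and the main fits use no pairing. With the replicate block 2 genes were called for age in irradiated mice. The settings without the 7 or the 2 arrays, with pairs counted once and without outlier spots were chosen after seeing the data. Erbb3, Erbb4, Egf, Areg, Ereg, Tgfa and Btc were limited by signal near background.

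Differences that turned sign are given with their value under the alternative, where genes or probes that were not well above background have no direction. For Grb2 with the 75th percentile another probe stood for the gene, so its turn in the interaction is not one of scaling alone. Scaled to the 75th percentile the sign turned for radiation in old mice (Erbb2 0.18, Rhbdf2 0.16, Erbb4 A_55_P2119888 0.29, Ereg 0.16, Btc 0.10), age in unirradiated mice (Erbb3 -0.27, Erbb4 A_55_P2119892 -0.37, Egf -0.14, Ereg -0.21, Btc -0.30), age in irradiated mice (Adam17 -0.07) and the interaction (Rhbdf2 0.08, Cblb 0.25, Grb2 0.20, Egfr A_55_P1956862 0.13, Erbb4 A_55_P2119888 0.23, Erbb4 A_55_P2119892 0.15). After quantile normalization the sign turned for radiation in young mice (Tgfa -0.07), radiation in old mice (Erbb2 0.07, Rhbdf2 0.09, Erbb4 A_55_P2119888 0.11, Ereg 0.07), age in unirradiated mice (Adam10 -0.13, Erbb4 A_55_P2119892 -0.02), age in irradiated mice (Phlda3 -0.11, Tgfa 0.19) and the interaction (Rhbdf2 0.04, Cblb 0.28, Grb2 0.20, Egfr A_52_P106259 -0.09, Erbb4 A_55_P2119888 0.11, Erbb4 A_55_P2119892 0.12, Egf -0.10). Scaled to well-detected probes the sign turned for radiation in old mice (Erbb2 0.21, Rhbdf2 0.19, Erbb4 A_55_P2119888 0.33, Ereg 0.20, Btc 0.13), age in unirradiated mice (Erbb3 -0.31, Erbb4 A_55_P2119892 -0.41, Egf -0.18, Ereg -0.25, Btc -0.35), age in irradiated mice (Adam17 -0.11) and the interaction (Rhbdf2 0.08, Cblb 0.25, Egfr A_55_P1956862 0.13, Erbb4 A_55_P2119888 0.23, Erbb4 A_55_P2119892 0.15). Under normexp the sign turned for radiation in young mice (Cbl 0.16, Grb2 0.33, Erbb4 A_55_P2119888 -0.09, Areg -0.07, Ereg -0.13, Tgfa -0.06, Btc -0.06), radiation in old mice (Rhbdf2 0.48, Shc1 0.06, Fos 0.38, Erbb4 A_55_P2119892 -0.03, Tgfa -0.08), age in unirradiated mice (Egfr A_52_P106259 0.06, Egfr A_55_P1956862 0.06, Erbb4 A_55_P2119888 0.16, Hbegf 0.13, Tgfa 0.08), age in irradiated mice (Shc1 -0.08, Phlda3 -0.04, Erbb4 A_55_P2119888 0.05, Areg 0.14, Ereg 0.06, Tgfa 0.06, Btc 0.09) and the interaction (Egfr -0.57, Erbb2 -0.05, Rhbdf2 0.16, Cblb 0.17, Egfr A_52_P106259 -0.36, Erbb3 -0.05, Hbegf -0.12, Tgfa -0.02, Btc 0.02). Under normexp without outlier spots the sign turned for radiation in young mice (Erbb4 A_55_P2119888 -0.05, Areg -0.03, Ereg -0.05), radiation in old mice (Fos 0.02, Btc 0.06), age in unirradiated mice (Erbb4 A_55_P2119888 0.03, Hbegf 0.05, Ereg -0.03, Tgfa 0.01), age in irradiated mice (Erbb4 A_55_P2119888 0.01, Areg 0.09, Ereg 0.01, Tgfa 0.04, Btc 0.06) and the interaction (Egfr -0.07, Egfr A_52_P106259 -0.10, Erbb3 -0.04, Hbegf -0.04, Ereg 0.04, Btc 0.04). In the deposited table the sign turned for radiation in young mice (Rhbdf2 -0.05), radiation in old mice (Erbb2 0.19, Rhbdf2 0.10), age in unirradiated mice (Adam17 -0.17, Adam10 -0.24, Cblb -0.02, Mdm2 -0.01), age in irradiated mice (Nrg1 0.48, Adam17 -0.29, Phlda3 -0.11) and the interaction (Rhbdf2 0.15, Cblb 0.43, Grb2 0.34). Taking the mean of probes the sign turned for radiation in young mice (Cbl 0.06), age in irradiated mice (Adam17 -0.19, Cbl 0.18, Cdkn1a 0.30) and the interaction (Cblb 0.29). Blocking on slide the sign turned for age in unirradiated mice (Erbb4 A_55_P2119888 0.14) and the interaction (Fos -0.04). Without the 7 arrays the sign turned for radiation in young mice (Erbb2 0.09, Errfi1 -0.02, Cbl 0.14, Fosl1 0.35), radiation in old mice (Erbb2 0.64, Adam17 -0.28, Errfi1 -1.18, Erbb4 A_55_P2119888 0.45, Areg 0.13, Ereg 0.45, Btc 0.45), age in unirradiated mice (Egfr A_52_P106259 0.04, Erbb4 A_55_P2119888 0.21), age in irradiated mice (Tgfa 0.30, Nrg1 0.31, Adam17 -0.22, Rhbdf2 -0.01, Cbl 0.66, Grb2 -0.09, Shc1 -0.13, Cdkn1a 0.17, Phlda3 -0.07, Egf -0.01, Ereg 0.08) and the interaction (Fos -0.54, Egfr A_52_P106259 -0.07, Egfr A_55_P1956862 0.07, Erbb3 -0.23, Egf -0.33). Without the 2 old irradiated arrays the sign turned for radiation in old mice (Tgfa -0.21, Rhbdf2 0.65, Fos 0.80, Fosl1 -0.07, Erbb4 A_55_P2119892 -0.11), age in irradiated mice (Errfi1 1.12, Egfr A_52_P106259 0.73, Egfr A_55_P1956862 0.38) and the interaction (Erbb2 -0.22, Tgfa -0.35, Rhbdf2 0.58, Errfi1 0.18, Cblb 0.06, Grb2 0.01, Mdm2 -0.07, Egfr A_55_P1956862 0.93, Egf -0.06). Counting close pairs once the sign turned for radiation in old mice (Rhbdf2 0.10), age in unirradiated mice (Hbegf 0.02), age in irradiated mice (Errfi1 0.23, Egfr A_52_P106259 0.07) and the interaction (Erbb2 -0.10, Tgfa -0.15, Cblb 0.15, Egfr A_55_P1956862 0.24, Egf -0.01). The cause was not tested.

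Without single arrays the sign turned for radiation in young mice (Erbb4 A_55_P2119888 -0.24 to 0.29, Rhbdf2 -0.01 to 0.14), radiation in old mice (Fos -0.73 to 0.11, Rhbdf2 -0.43 to 0.18, Btc -0.43 to 0.05, Erbb2 -0.40 to 0.19, Ereg -0.37 to 0.10, Erbb4 A_55_P2119888 -0.21 to 0.24, Adam17 -0.13 to 0.27, Fosl1 -0.06 to 0.56), age in unirradiated mice (Hbegf -0.82 to 0.04, Egfr A_52_P106259 -0.75 to 0.04, Erbb4 A_55_P2119888 -0.33 to 0.21, Erbb4 A_55_P2119892 -0.07 to 0.26), age in irradiated mice (Egfr A_52_P106259 -1.15 to 0.25, Cbl -0.83 to 0.22, Errfi1 -0.79 to 0.28, Nrg1 -0.43 to 0.03, Erbb4 A_55_P2119888 -0.33 to 0.15, Ereg -0.32 to 0.16, Tgfa -0.30 to 0.07, Erbb3 -0.12 to 0.80) and the interaction (Egfr A_55_P1956862 -0.87 to 0.54, Egfr A_52_P106259 -0.62 to 0.78, Rhbdf2 -0.49 to 0.11, Erbb3 -0.37 to 0.55, Fos -0.32 to 0.52, Erbb4 A_55_P2119892 -0.31 to 0.17, Erbb4 A_55_P2119888 -0.30 to 0.24, Cblb -0.18 to 0.06, Egf -0.12 to 0.24, Tgfa -0.09 to 0.28).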
